A study of Mus musculus with 23 samples.

Results

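H3K27ac, the acetylation of lysine 27 on histone H3, was compared between E13.5 and E15.5 in Ebf2-EGFP+ cells of the mouse cerebral cortex, as peak lists from chromatin immunoprecipitation followed by sequencing. The E13.5 list held 102881 peaks and the E15.5 list 25793, which makes 128674 of the 230624 peaks in the 8 lists of the series. The members were all peaks of both lists, each called shared, lost or gained. Shared peaks overlapped 1 of the other stage by at least 1 bp. A peak was called lost when it was listed at E13.5 only, and gained when it was listed at E15.5 only. The same calls were made for the 21938 protein-coding genes at their annotated transcription start site (TSS), with a peak counted within 5 kb on either side.

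The cells came from Tg(Ebf2-EGFP)FB58Gsat embryos, in which regulatory sequence of Ebf2 drives EGFP, and were purified by fluorescence-activated sorting. All groups carried this transgene. EGFP first labels the preplate, which holds subplate and Cajal-Retzius (CR) neurons, and by E15.5 it is kept mainly by CR neurons, so the sorted population itself differed between the stages. A site that disappears from the list because fewer cells of a type were sorted cannot be told apart from one that lost the mark within a cell. Each list belonged to 2 ChIP libraries and had 2 input libraries at its stage. The peaks carried no scores and no read counts, so the depth is unknown, there was no replicate list, and no difference below has a test. Intervals are 95% Wilson intervals that cover counting over peaks or genes only.

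CR neurons are the Reelin-secreting cells of cortical layer 1 that guide the placement of later-born neurons. They arise at the cortical hem, the septum and the ventral pallium and spread over the surface of the cortex. H3K27ac is deposited at promoters and enhancers in use, whereas H3K27me3, the methylation of the same residue by Polycomb complexes, marks silenced developmental genes, and a nucleosome tail cannot carry both at that residue.

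The lists differed in more than length. The narrowest nuclear peak had 126 bp at E13.5 and 184 bp at E15.5, the median peak 183 bp and 283 bp, and peaks of 300 bp or wider made up 16.3% and 46.6% of the lists. The lists covered 23242 kb and 11205 kb in all. Changes were therefore also called firmly, with a wide peak at one stage and nothing of any width at the other. A TSS was firmly lost with an E13.5 peak of at least 300 bp and no E15.5 peak within 5 kb, and firmly gained with the reverse.

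A region of the Hoxa cluster stood apart in both lists. On chromosome 6, from 52066315 to 52209817 (mm10), 3 abutting E15.5 peaks of up to 65143 bp covered 99.8% of 143503 bp, and 60 E13.5 peaks of up to 10680 bp covered 90.7%. The E11.5 H3K27ac list of the same cells had 0 peaks there. The stretches of equal length on either side were covered to 0.139% and 0.61% at E15.5, and the E15.5 H3K27me3 list covered 33.4% of the region with 139 peaks. Hoxa2, Hoxa4, Hoxa5 and Hoxa6 are among the genes that start inside it, and results on Hox genes are given with and without the Hoxa genes. Leaving the region out changed none of the 6 counts and shares over all peaks and TSS by more than 0.1 percentage points or 1 TSS.

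To show what changed promoters look like, the 250 bases upstream of 6 TSS follow, with the lost E13.5 peak near the TSS of Ebf2, the gene behind the reporter. They were read 5' to 3' on the strand of the gene from GRCm38.p6, the assembly of mm10, and capitals mark CpG dinucleotides, which are dense in the promoters of broadly used genes. Reln, which encodes Reelin, kept H3K27ac (chr5:22344703-22344952, minus strand, 37 CpG). Hnrnpu, a nuclear RNA-binding protein, firmly gained it (chr1:178337798-178338047, minus strand, 35 CpG), and so did Cd200, a membrane glycoprotein of neurons (chr16:45409054-45409303, minus strand, 6 CpG). Sncb, which encodes beta-synuclein (chr13:54766596-54766845, minus strand, 10 CpG), Neurog1, a neurogenic transcription factor of progenitors (chr13:56252164-56252413, minus strand, 27 CpG), and Tac1, the precursor of substance P (chr6:7554629-7554878, plus strand, 8 CpG), firmly lost it. The Ebf2 peak of 147 bp (chr14:67231944-67232090, plus strand, 14 CpG) lay upstream of the TSS at 67233292 and was lost.
Reln: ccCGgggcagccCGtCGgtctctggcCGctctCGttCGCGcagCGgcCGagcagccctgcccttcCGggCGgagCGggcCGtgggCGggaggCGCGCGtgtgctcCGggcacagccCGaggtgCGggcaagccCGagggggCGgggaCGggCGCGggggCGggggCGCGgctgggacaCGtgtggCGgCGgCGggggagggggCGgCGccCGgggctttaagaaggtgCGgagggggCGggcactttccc
Hnrnpu: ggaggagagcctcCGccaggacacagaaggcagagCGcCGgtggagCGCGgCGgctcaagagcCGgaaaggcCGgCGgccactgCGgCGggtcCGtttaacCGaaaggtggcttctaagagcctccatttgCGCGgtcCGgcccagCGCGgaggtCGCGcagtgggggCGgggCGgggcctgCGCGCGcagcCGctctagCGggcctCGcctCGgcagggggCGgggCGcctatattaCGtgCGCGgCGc
Cd200: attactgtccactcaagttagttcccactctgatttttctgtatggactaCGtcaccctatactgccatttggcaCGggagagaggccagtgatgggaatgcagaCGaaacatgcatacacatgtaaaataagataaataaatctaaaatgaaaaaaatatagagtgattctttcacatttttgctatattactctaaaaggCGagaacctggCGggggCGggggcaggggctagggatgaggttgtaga
Sncb: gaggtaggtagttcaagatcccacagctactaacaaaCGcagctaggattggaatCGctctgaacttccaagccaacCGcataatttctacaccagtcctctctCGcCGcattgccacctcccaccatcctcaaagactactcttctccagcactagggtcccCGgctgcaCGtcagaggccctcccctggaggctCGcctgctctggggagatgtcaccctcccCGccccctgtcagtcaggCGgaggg
Neurog1: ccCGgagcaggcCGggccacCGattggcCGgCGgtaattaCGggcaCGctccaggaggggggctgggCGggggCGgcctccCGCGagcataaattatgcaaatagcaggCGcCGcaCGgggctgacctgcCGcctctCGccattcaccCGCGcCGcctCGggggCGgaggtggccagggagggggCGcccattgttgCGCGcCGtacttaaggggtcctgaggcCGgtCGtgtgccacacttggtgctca
Tac1: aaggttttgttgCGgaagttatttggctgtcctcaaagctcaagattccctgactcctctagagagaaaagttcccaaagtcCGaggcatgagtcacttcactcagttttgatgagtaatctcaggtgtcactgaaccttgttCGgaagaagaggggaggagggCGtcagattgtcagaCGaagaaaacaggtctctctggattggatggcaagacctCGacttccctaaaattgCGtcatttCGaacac
Ebf2 peak: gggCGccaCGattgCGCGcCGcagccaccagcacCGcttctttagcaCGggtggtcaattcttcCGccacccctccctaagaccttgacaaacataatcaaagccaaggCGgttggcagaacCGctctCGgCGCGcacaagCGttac

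Of 102877 nuclear E13.5 peaks, 11496 overlapped an E15.5 peak (11.2%, CI 11 to 11.4) and 91381 were lost. Of 25787 nuclear E15.5 peaks, 10154 overlapped an E13.5 peak (39.4%, CI 38.8 to 40) and 15633 were gained. Restricting both lists to peaks of 300 bp or wider left 16767 and 12018 peaks, of which 19.3% (CI 18.7 to 19.9) and 25.6% (CI 24.9 to 26.4) were shared. Wider peaks were shared more often in both lists. Among E13.5 peaks it went from 5.46% of those under 150 bp to 42.6% of those of 1000 bp or wider, and among E15.5 peaks from 18.7% of those under 200 bp to 82.5%.

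**Figure D1:**
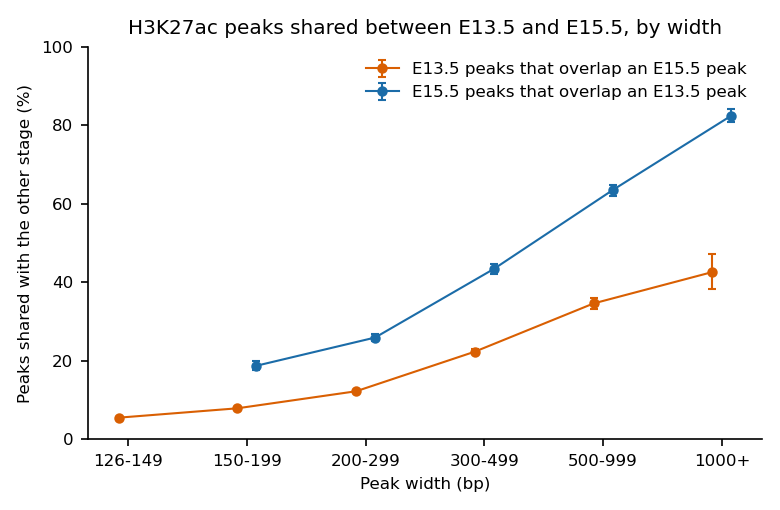
Share of H3K27ac peaks of each stage (%) that overlapped a peak of the other stage, by peak width in bp, with 95% Wilson intervals. In every width class that both lists filled, the E15.5 peaks were shared more often, and among peaks of 1000 bp or wider 82.5% of E15.5 and 42.6% of E13.5 peaks were shared.

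What persisted was largely promoter marking, and what was lost was largely distal. Peaks centred within 1 kb of a TSS made up 56.9% of shared E13.5 peaks, 4.86% of lost peaks and 26.2% of gained peaks. Lost peaks lay in introns (43.1%) and between genes (36%) for the most part. Among peaks of 300 bp or wider that met no peak of any width at the other stage, 7.23% of 12475 lost and 56% of 5081 gained peaks were at promoters. Counted from the annotation, promoter peaks were shared about equally from both sides, 59.6% of those at E13.5 (CI 58.6 to 60.5) and 57.9% of those at E15.5 (CI 56.9 to 58.9). Intronic peaks were not, with 4.54% of 41224 at E13.5 and 23.5% of 7097 at E15.5. Gained peaks also met the E11.5 H3K27ac list more often (21.1%) than lost peaks did (8.29%), and shared E13.5 peaks met it at 55.8%.

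The changed peaks differed in sequence as well. The mean GC content was 66.6% ± 8.11 (SD over peaks) in shared E13.5 peaks, 56.5% ± 5.33 in lost and 57.3% ± 6.98 in gained peaks. Repeat-masked bases made up 25.3% of lost, 13.6% of gained and 13.4% of shared E13.5 peaks on average. Among peaks of 300 bp or wider, called against all peaks of the other stage, these means were 37.3% for lost, 8.41% for gained and 19.6% for shared E13.5 peaks.

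At the TSS, H3K27ac was kept at 9050 genes, lost at 4318 and gained at 2418, and 6152 TSS had no peak at either stage. The lost TSS were 19.7% of all 21938 and 32.3% of those marked at E13.5 (CI 31.5 to 33.1), and the gained TSS were 11% of all and 21.1% of those marked at E15.5 (CI 20.3 to 21.8). With peaks of 300 bp or wider in both lists the balance turned. Then 3318 TSS were kept, 1723 lost (7.85% of all) and 6035 gained (27.5%), so that gains were 77.8% of the changes against 35.9% with all peaks. Firm changes were fewer, with 1145 TSS firmly lost (5.22%) and 1829 firmly gained (8.34%). With a firm width of 200 bp the order turned, to 2550 lost and 2282 gained. The widest peak had a median of 222 bp at lost and 497 bp at gained TSS. Near the limit of 300 bp, 178 lost TSS had a widest peak within 20 bp above and 205 within 20 bp below it, and 67 and 71 gained TSS did. Neighbouring genes shared their widest peak at 171 firmly lost and 501 firmly gained TSS, so these are not independent of each other.

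The 2 stages also differed in where the peaks sat. Coverage was highest about 150 bp downstream of the TSS in both lists. At kept TSS it reached 68.9% at E15.5, 33.8% at E13.5 and 44% at E11.5. Gained TSS reached 68.2% at E15.5 and lost TSS 20.2% at E13.5. Beyond 2 kb from the TSS mean E13.5 coverage was 2.53% around kept and 2.75% around lost TSS, so the 2 sets differed at the start and not far from it. The E15.5 list covered 1.7% there around kept TSS.

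**Figure D2:**
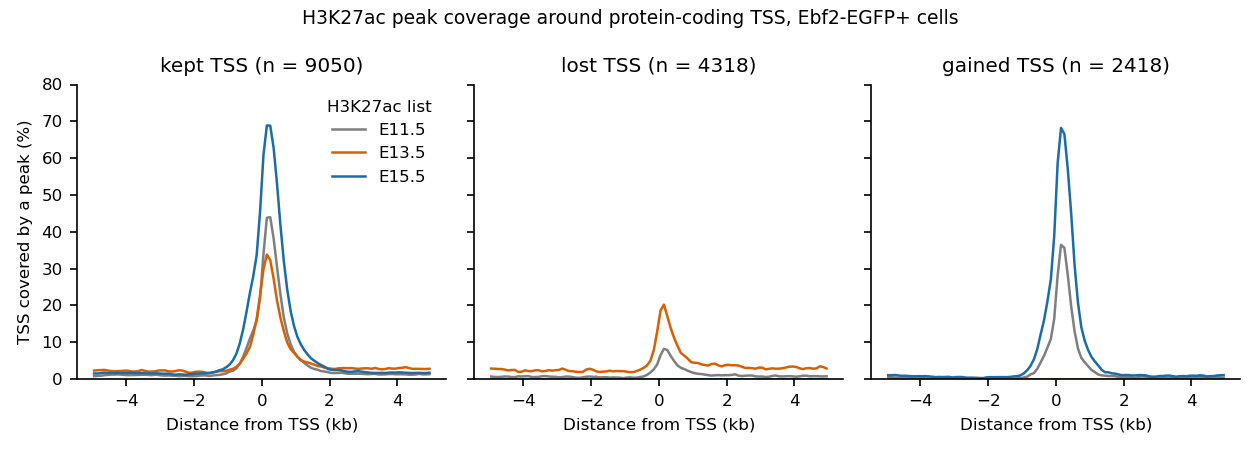
Percentage of TSS covered by an H3K27ac peak against distance from the TSS in kb (100 bp bins, gene direction to the right), for kept, lost and gained TSS and the lists of E11.5, E13.5 and E15.5. The E15.5 curve reaches 68.9% at kept and 68.2% at gained TSS, while the E13.5 curve reaches 33.8% at kept and 20.2% at lost TSS; the flat curves of lost and gained TSS follow from their definition.

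The lists of developmental regulators differed in how often H3K27ac was lost. Over all TSS marked at E13.5, 32.3% were lost, against 65.8% in the Hox list, 53.1% in the other homeobox factors, 33.3% in the forkhead and 26.3% in the Sox list, so that the forkhead list was close to all TSS and the Sox list below it. Hox genes, which set position along the trunk and hindbrain, were lost at 25 of 39 TSS, kept at 13 and gained at 0. Without the 11 Hoxa genes the counts were 23 lost, 4 kept and 0 gained of 28. In the Hox list 8 TSS were firmly lost (20.5%, against 5.22% of all TSS), among them Hoxb4, Hoxc6, Hoxc9 and Hoxd12. Hoxb4 had 142 bp at E11.5, 345 bp at E13.5 and no peak at E15.5 as its widest peak. The other homeobox and related factors, which specify regions and neuron types, were lost at 60 of 128 TSS, kept at 53 and gained at 4, with 27 firmly lost (21.1%) and 3 firmly gained (2.34%). The firmly lost genes included Nkx2-2 and Nkx6-1 of the ventral neural tube, Pax3 of its dorsal part, and Lhx3 and Pou4f1. Nkx6-1 had a widest peak of 1579 bp at E11.5, 754 bp at E13.5 and none later. Pbx4 and Pitx3 were among the firmly gained, with 571 bp and 406 bp. Forkhead genes were lost at 14 of 44 TSS (5 firmly, Foxa2 among them) and Sox genes at 5 of 19, and neither list had a gain. Sox2 and Sox6 were the 2 firmly lost Sox genes. In these 4 lists firm losses outnumbered firm gains with firm widths of 200 and 500 bp, a window of 1 kb and wide peaks in both lists, except that the Hox list without Hoxa genes had 0 firm changes at 500 bp. The median difference in bp covered within 5 kb (E15.5 minus E13.5) was -319 bp over Hox genes, -246 bp over the other homeobox factors, -206 bp over forkhead and -223 bp over Sox genes, and 0 bp over all protein-coding genes.

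Markers of cells other than CR neurons were lost more often than gained, as was the case over all TSS (19.7% lost, 11% gained). Of the members marked at E13.5, 56.2% were lost in the interneuron, 42.9% in the glial and 50% in the choroid plexus list. The share was 60% for meningeal and pericyte, 80% for microglia, 80% for blood cell and 85.7% for endothelial markers. Over all marked TSS it was 32.3%, and these lists are small, with 5 to 16 marked members each. Interneuron markers had 9 lost, 7 kept and 0 gained of 19. The inhibitory transporter gene Slc32a1 had 4 E13.5 peaks of up to 501 bp, and the E15.5 list had 0 near it. Dlx1, a homeobox factor of the ganglionic eminences, had 3 E13.5 peaks of up to 414 bp and 0 later, and Dlx6, Sp9 and Isl1 were also firmly lost. The widest E13.5 peak at Sp9 had 957 bp. Only 1 of the 19 genes was covered by more bp at E15.5, and 15 by fewer. Of 13 microglia markers 8 were lost and 2 gained, none firmly. Endothelial markers had 6 lost (Cldn5, Flt1 and Esam firmly) and 1 gained of 12, and meningeal and pericyte markers 6 lost and 0 gained of 13. Choroid plexus markers had 3 lost and 1 gained of 8, glial markers 3 lost and 1 gained of 12, and blood cell markers 4 lost and 0 gained of 10. Hba-a1 and Hba-a2, the alpha-globin genes, were the 2 firmly lost blood genes and are near-identical copies. The share of such cells in each sort was not measured here, and its part in these losses was not tested.

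Among TSS marked at E13.5, progenitor and regional genes were lost about as often as all genes or less. Firm losses were more frequent, at 13% of cortical progenitor and 14.3% of CR origin genes, against 5.22% of all TSS. They rest on 3 genes in each list. Of 23 cortical progenitor genes 16 were kept, 5 lost (21.7%, against 19.7% of all TSS, and 23.8% of those marked at E13.5 against 32.3%) and 0 gained. Sox2, which maintains the progenitor state, had a widest peak of 480 bp at E11.5, 505 bp at E13.5 and none at E15.5. Neurog1 had 430 bp, 313 bp and none at the same stages. Notch1, the receptor that holds progenitors undifferentiated, had a peak of 309 bp at E13.5 alone. Pax6 and Prom1 were lost with widest E13.5 peaks of 239 bp and 136 bp. The balance of this list turned with a window of 1 kb, to 4 firm gains against 2 firm losses, and with peaks of 300 bp or wider in both lists. The genes of CR origin, which pattern the hem, septum and pallial borders, were kept at 13 of 21 TSS, lost at 6 and gained at 1. Wnt3a, a signal of the cortical hem, had 338 bp at E13.5 and none at E15.5. Dbx1, a factor of the ventral pallium, had 300 bp and none, which places it exactly at the limit for a firm loss. Fgf17, of the rostral signalling centre, had 341 bp and none, and Rspo3, which enhances Wnt signalling at the hem, had none and 377 bp. In the cell cycle list 9 of 45 TSS were lost (20%, near the 19.7% of all TSS) and 7 gained (15.6%, against 11%), with 5 and 3 firm, and gains led with a window of 1 kb (6 against 3) or wide peaks in both lists. Mki67, the proliferation marker, had 406 bp and none, Ccnd1, a cyclin of the G1 phase, had 522 bp and none, and Pcna and Aurka were firmly gained.

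Other lost groups were genes of non-neural tissues and of mature signalling. Over all TSS 19.7% were lost, 11% gained and 5.22% firmly lost. The lost share was 50.5% for keratin, 36.4% for collagen and 44.4% for neuropeptide genes. It was 51.8% for clustered protocadherins and 47.5% for receptors of acetylcholine, serotonin and dopamine. Keratin and keratin-associated genes were lost at 55 of 109 TSS (16 firmly, or 14.7%) and gained at 4. Collagens were lost at 16 of 44 (8 firmly, or 18.2%, Col4a1, Col4a2 and Col6a1 among them) and gained at 2. Col6a1 had 4 peaks of up to 933 bp at E13.5 and none at E11.5 or E15.5. Neuropeptide genes were lost at 12 of 27 and gained at 1, with Tac1, Tac2, Gal, Hcrt and Ucn firmly lost (18.5%). Clustered protocadherins, adhesion molecules from closely spaced alternative first exons, were lost at 29 of 56 and gained at 1. Their neighbouring starts share peaks, and 8.93% of them were firmly lost, against 0 with a window of 1 kb. Receptors for acetylcholine, serotonin and dopamine were lost at 19 of 40 and gained at 2. Olfactory receptor genes, which are not used in the cortex, give the rate at which a TSS has a peak nearby without known use. Of 1092, 112 were lost (10.3%, 14 of them firmly) and 16 gained, and the median widest peak was 174 bp at E13.5 where there was one. Only 121 of these TSS were marked at E13.5, and 92.6% of those were lost, a larger share than the 65.8% of marked Hox and 53.1% of marked homeobox TSS, so a high share lost among marked TSS was also found in a list without known use in these cells.

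Several lists of genes for basic cell machinery gained H3K27ac more often than all TSS (11%), although they hold a small part of the 2418 gained TSS. Splicing factors were gained at 29.4% of TSS, mitochondrial ribosomal proteins at 30.8% and oxidative phosphorylation genes at 28%, and the kinesin list, of motor proteins, reached 28.9%. Of TSS marked at E15.5, 21.1% were gained over all genes. The share was 30.3% for splicing, 34.3% for mitochondrial ribosomal, 31.3% for oxidative phosphorylation and 39.3% for kinesin genes. It was 28.3% for translation factors and 29.8% for zinc finger Zfp genes. Cytosolic ribosomal (20.8%), proteasome (18.2%) and histone genes (9.23%) were not above all genes by this share. Their TSS were marked at 93.9%, 88% and 97% at E15.5, against 52.2% of all. Splicing factors had 46 kept, 20 gained and 0 lost of 68, with 18 firmly gained (26.5%, against 8.34% of all TSS). Hnrnpk, which binds pre-mRNA, had a single E15.5 peak of 2153 bp and none at E13.5, and shared it with its neighbour Rmi1. Hnrnpu had a peak of 1626 bp and none. Oxidative phosphorylation genes had 57 kept, 26 gained and 6 lost of 93, with 22 firmly gained and 3 firmly lost. Those lost, named after their values were seen, were Cox4i2, Cox6a2, Cox7a1, Cox7a2l, Cox8b and Cox8c, of which Cox6a2, Cox7a1 and Cox8b are known as the heart and muscle isoforms and Cox8c as a testis isoform. Those gained included Ndufa4 and Cox7c, with 427 bp and 527 bp. Cytosolic ribosomal proteins had 61 kept, 16 gained and 0 lost of 82, and mitochondrial ribosomal proteins 46 kept, 24 gained and 3 lost of 78. Translation factors had 17 gained and 4 lost of 69, and proteasome genes 8 and 3 of 50. Zinc finger genes named Zfp, a large family of DNA-binding repressors, had 191 kept, 81 gained and 39 lost of 394, with 65 firmly gained (16.5%) and 9 firmly lost (2.28%). Replication-dependent histone genes had 59 kept, 6 gained (8.96%, not above the 11% of all TSS) and 2 lost of 67, the lost pair being Hist1h2aa and Hist1h2ba, which are known as testis variants. In these 8 lists firm gains outnumbered firm losses with the same 4 alternatives. The median difference in covered bp (E15.5 minus E13.5) was 676 bp over splicing factors, 434 bp over cytosolic ribosomal proteins and 211 bp over Zfp genes, and 0 bp over all protein-coding genes.

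**Figure D3:**
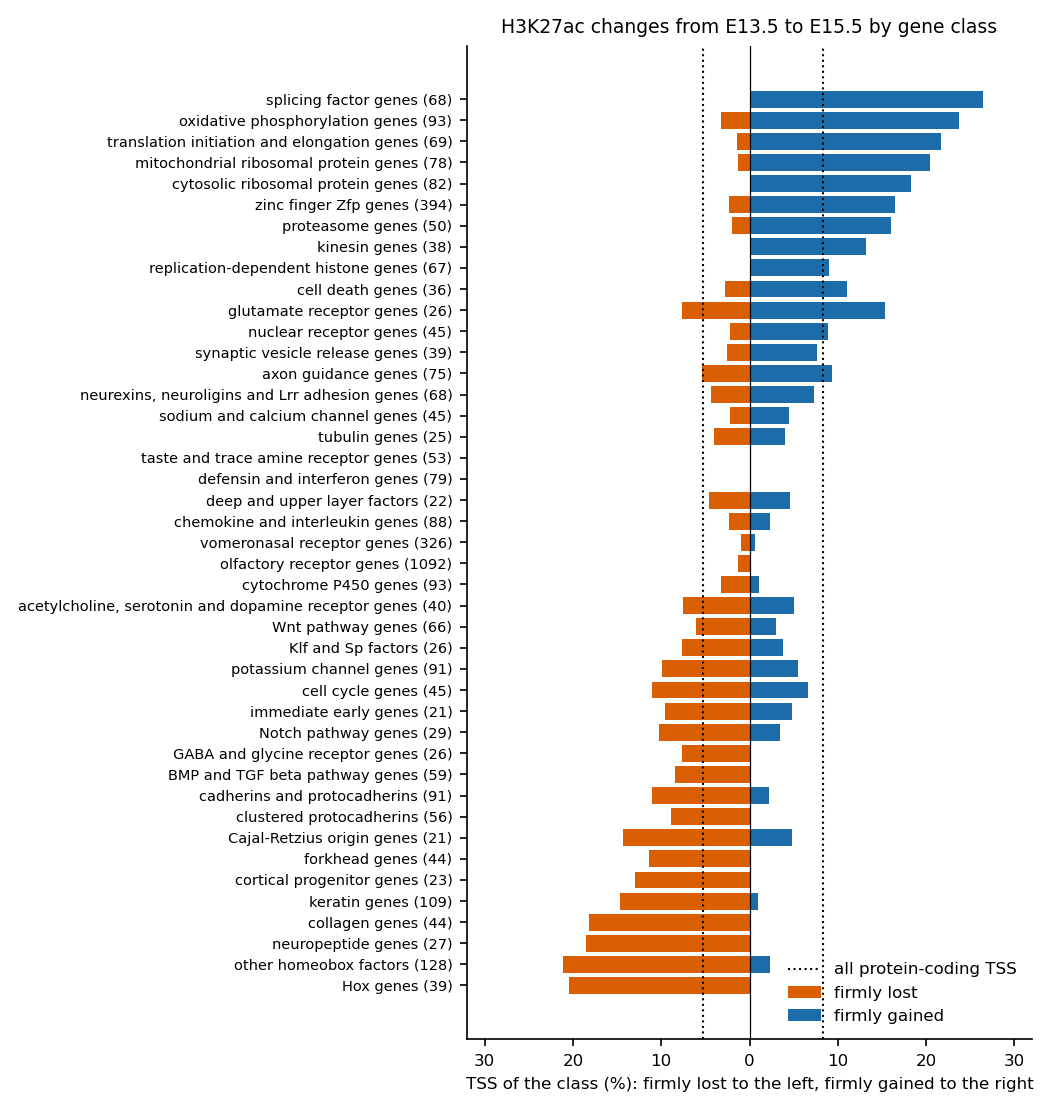
Firmly lost (left, orange) and firmly gained (right, blue) TSS as a percentage of each gene class of at least 20 members, with the class size in brackets. Dotted lines mark the shares over all protein-coding TSS (5.22% lost, 8.34% gained); splicing factors reach 26.5% gained, and Hox genes and other homeobox factors reach 20.5% and 21.1% lost.

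Most of the gained promoters had already been listed at E11.5. Of the 2418 gained TSS, 62.9% had a peak in the E11.5 H3K27ac list (CI 61 to 64.8), and of the 1829 firmly gained 73.4% did (CI 71.4 to 75.4). Of the 18 firmly gained splicing factors 16 were marked at E11.5, as were 13 of 15 cytosolic ribosomal, 15 of 22 oxidative phosphorylation and 43 of 65 Zfp genes. The whole lists were marked at E11.5 at 83.8%, 82.9%, 66.7% and 55.3%, and all TSS at 49.9%, so these counts were not far from the rate of each list. Hnrnpk had a widest peak of 1233 bp at E11.5, none at E13.5 and 2153 bp at E15.5. These TSS were thus absent from the E13.5 list alone, and at the 7263 kept TSS also marked at E11.5 the E13.5 peaks were the narrowest of the 3 stages, with a median widest peak of 397 bp (E11.5), 282 bp (E13.5) and 694 bp (E15.5). Whether the depth or quality of the E13.5 libraries moved these counts was not tested, since no file gives either.

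Lists of neuronal effector genes differed in how many TSS were kept. Over all TSS 41.3% were kept, 19.7% lost and 11% gained. Of 39 genes of synaptic vesicle release 26 were kept, 4 lost and 4 gained (10.3%, near the share of all TSS). Snap25, the membrane fusion protein, had 2 peaks of up to 454 bp at E15.5 and none at the earlier stages. Syn1, which tethers vesicles, and Bsn, a scaffold of the active zone, each had 1 peak of 572 bp at E15.5 alone. Slc17a6, a vesicular glutamate transporter, had 273 bp at E11.5, none at E13.5 and 206 bp at E15.5. Sncb, Cplx3, Sv2c and Syt2 were lost. Among 26 glutamate receptor genes 11 were kept and 4 gained, all firmly (15.4%, against 8.34% of all TSS), Gria4, Grin2b and Grm8 among them. Grin2a, Grin2c, Grin3a and Grm4 were lost (15.4%). Grin2b, the subunit that prevails in embryonic receptors, had 855 bp at E15.5 alone, while Grin2a, the subunit that prevails later, had 466 bp at E11.5, 525 bp at E13.5 and none at E15.5. GABA and glycine receptor genes had 5 kept, 7 lost, 0 gained and 14 unmarked of 26. The lost were 58.3% of those marked at E13.5, against 32.3% over all TSS. Axon guidance genes were kept at 56 of 75 TSS, lost at 6 (8%) and gained at 8 (10.7%, near the share of all TSS). Nrp1, a semaphorin receptor, had 4 peaks of up to 636 bp at E15.5, none at E13.5 and 2 at E11.5. Cxcr4, the receptor through which meningeal Cxcl12 holds CR cells at the surface, had 3 peaks of up to 363 bp at E15.5 and none before. It was the 1 gained of 4 genes of the Cxcl12 axis, of which 2 were lost, neither firmly, and 0 kept. Reelin pathway genes were kept at 15 of 18 TSS, with Src lost and Crk gained.

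The CR genes were read by name. Of 9 CR markers, all marked at E13.5, 6 were kept, 3 lost and 0 gained. The lost share of 33.3% was near the 32.3% of all TSS marked at E13.5, so these counts cannot check the identity of the sorted cells. Reln had a widest peak of 326 bp at E11.5, 126 bp at E13.5 and 1625 bp at E15.5. Tbr1, a T-box factor of early neurons, had 907 bp, 755 bp and 1131 bp at the same stages, Ebf3, a helix-loop-helix factor of CR cells, 481 bp, 625 bp and 1337 bp, and Lhx5, a LIM factor of the hem, 292 bp, 378 bp and 513 bp. These 4 had their widest peak at E15.5. Trp73, the p53 homologue of hem-derived CR cells, went the other way with 286 bp, 782 bp and 344 bp, and Lhx1 had 167 bp, 312 bp and 277 bp. Calb2, the calretinin gene, had 2 peaks of up to 250 bp at E13.5 alone. Ebf2, whose regulatory sequence drives the reporter, had 151 bp, 147 bp and none, and no E15.5 peak was assigned to it within 100 kb, against 16 at E13.5. Cdkn1a, the cell cycle inhibitor, had 267 bp, 134 bp and none. The 3 lost markers all had E13.5 peaks narrower than 300 bp, so none was firmly lost.

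The layer 1 and rising CR genes had mostly wider peaks at E15.5. These 2 lists were chosen by the study on expression in the same cell groups and are not independent evidence of a direction. Of 8 layer 1 genes 5 were kept, 2 gained and 1 lost. Ppp2r2c, a regulatory subunit of protein phosphatase 2A, had none at E13.5 and 4 peaks of up to 300 bp at E15.5, exactly at the limit, after 311 bp at E11.5. Brinp1 had 224 bp at E15.5 alone, and Sncb had 2 peaks of up to 409 bp at E13.5 alone. Of 11 genes with rising expression 9 were kept, 1 gained and 1 lost. Their widest peak had more bp at E15.5 than at E13.5 in all 9 kept genes. Wider peaks at E15.5 were general, with a median widest peak of 274 bp and 616 bp over all kept TSS, so this was not shown to be particular to CR genes, and the bp covered at Spock1 were 460 at E13.5 and 376 at E15.5. B3gat1, which makes the HNK-1 carbohydrate, had 299 bp at E13.5 and 982 bp at E15.5, Caly 126 bp and 582 bp, and Spock2, an extracellular proteoglycan, 520 bp and 812 bp. Cd200 had none and 484 bp, and Cacna2d2, a calcium channel subunit, 165 bp and none. The 15 subplate and early neuron genes had 8 kept, 3 lost and 1 gained. Moxd1 was firmly lost with 517 bp, and Nr4a2, a nuclear receptor of subplate neurons, was firmly gained with 715 bp after 846 bp at E11.5.

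**Figure D4:**
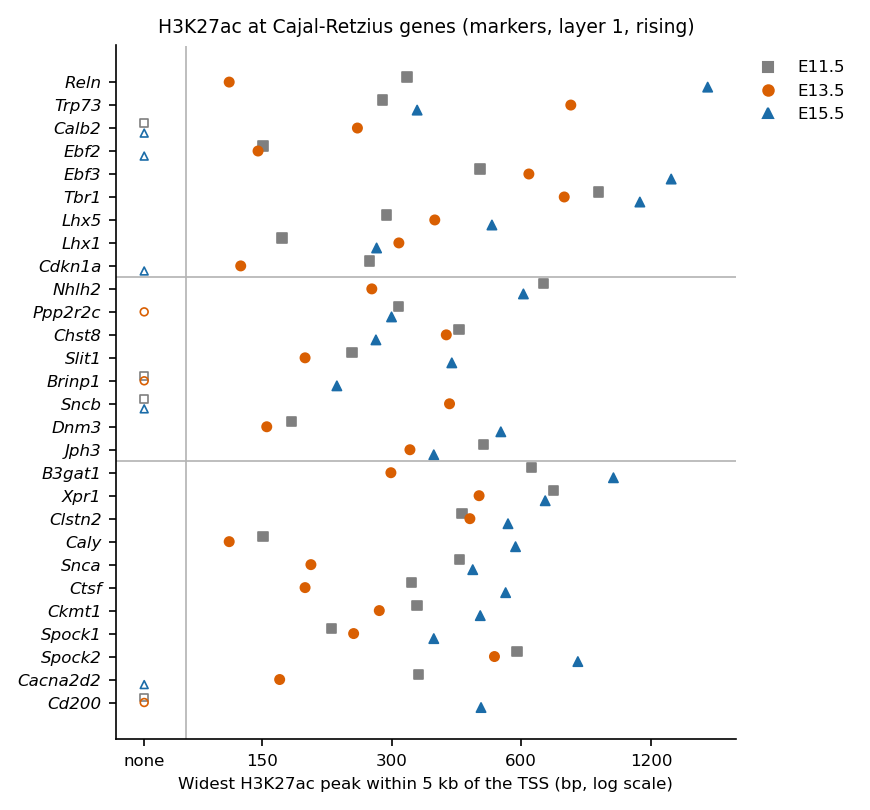
Widest H3K27ac peak within 5 kb of the TSS (bp, log scale) for 9 CR markers, 8 layer 1 genes and 11 rising genes (blocks from top to bottom) at E11.5 (squares), E13.5 (circles) and E15.5 (triangles), with open symbols at the left where no peak was listed. Reln spans 126 bp at E13.5 to 1625 bp at E15.5, and Calb2, Ebf2, Cdkn1a, Sncb and Cacna2d2 have an open triangle.

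The widest peaks of the firm changes were of different sizes in each direction. The 10 firmly gained TSS with the widest E15.5 peak ran from 2153 bp (Hnrnpk and Rmi1) through 2080 bp (Ewsr1 and Rhbdd3), Gramd1a, Serinc2, Hs2st1, Selenof and Maco1 to 1800 bp (Bicral), and all 10 had a peak at E11.5. The 10 firmly lost TSS with the widest E13.5 peak were 9130204L05Rik (2194 bp), Pgbd5 (1010 bp), Hsf5 (1003 bp), Atp6v1fnb, Sp9, Gm13276, Gm21586, Col6a1 and, with 1 peak of 909 bp between them, Atp6v1h and Rgs20. Of these 10, 7 had a peak at E11.5. The peaks at 9130204L05Rik and Pgbd5 lay mostly beyond 5 kb, with 673 bp and 170 bp covered inside it.

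At kept TSS 6749 of 9050 (74.6%) were covered by more bp at E15.5 and 2297 (25.4%) by more bp at E13.5, with a median difference of 289 bp (E15.5 minus E13.5). The 10 TSS with the largest differences towards E15.5 included the following. Tnrc18 was covered by 252 bp and then 6858 bp, Bcl11a, a zinc finger factor of cortical neurons, by 1206 bp and 5405 bp, and Kdm6b, a demethylase of H3K27me3, by 1379 bp and 5308 bp. Brd2, a reader of acetylated histones, had 1050 bp and 4713 bp and shared its peak with H2-DMa. Mex3b, Hivep2, Sox4, Meis2 and A830031A19Rik completed the 10. Meis2 also stood out when all peaks within 100 kb were assigned to the nearest TSS, with 7 gained and 3 lost peaks. These counts include peaks close to the start, and 8 E15.5 peaks lay within 5 kb of its TSS.

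H3K27me3 at E13.5 was listed more often at kept and lost TSS, which had H3K27ac at that stage, than at gained TSS, which by definition had not. Whether it bears on loss was not tested. At E13.5 it was listed at 13.4% of lost TSS (CI 12.4 to 14.4) and 3.68% of gained TSS (CI 3 to 4.51), and at 21% of firmly lost and 3.55% of firmly gained TSS. Kept TSS had it at 14%. Over all TSS the share was 9.31%. The Hox genes had it at 24 of 39 TSS, of which 18 of the 25 lost and 6 of the 13 kept (16 of 23 lost without the Hoxa genes), and the other homeobox factors at 48 of 128, of which 28 of the 60 lost and 17 of the 53 kept. In E11.5 Ebf2-EGFP- cells, mostly progenitors, H3K27me3 was listed at 49.3% of lost, 48.1% of gained, 65.7% of firmly lost and 52.9% of firmly gained TSS. The E15.5 H3K27me3 list, with 1429 nuclear peaks, reached 1.07% of lost TSS and 1.6% of kept TSS, and a list this short cannot show how many lost TSS took up the mark. The E11.5 H3K27ac list marked 37.7% of lost TSS (CI 36.3 to 39.2) against 62.9% of gained and 80.3% of kept TSS.

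**Figure D5:**
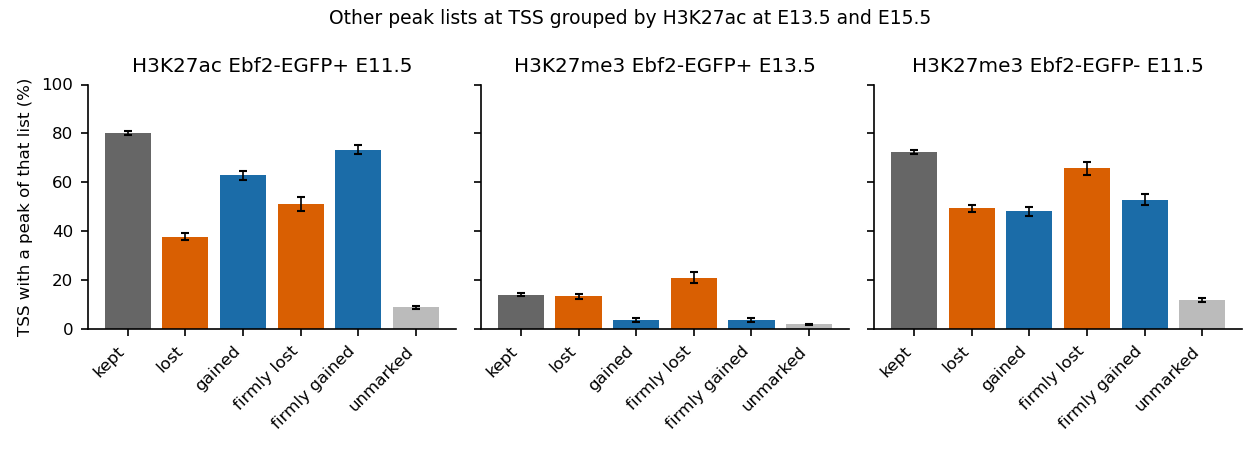
Percentage of TSS with a peak within 5 kb in 3 lists that the calls did not use, for TSS grouped by H3K27ac at E13.5 and E15.5, with 95% Wilson intervals. E11.5 H3K27ac was listed at 62.9% of gained and 37.7% of lost TSS, and E13.5 H3K27me3 at 3.68% and 13.4%.

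Promoter sequence also differed between the sets. From 250 bases before to 50 after the TSS, the ratio of observed to expected CpG had a median of 0.761 at kept, 0.749 at gained, 0.348 at lost and 0.186 at unmarked TSS, and 0.525 over all. Firmly gained TSS had 0.794 and firmly lost TSS 0.425. The ratio was at least 0.6 at 69.6% of gained and 25.9% of lost promoters. The ETS motif CCGGAAGT was found on either strand in 9.22% of gained, 7.24% of kept, 1.67% of lost and 4.7% of all promoters. The YY1 core AAGATGGC was in 5.46%, 4.21%, 1.39% and 2.92%, and the NRF1 core GCATGCGC in 5.58%, 5.23%, 1.88% and 3.71%. For these 3 motifs the kept share was thus nearer to the gained than to the lost share. CCGGAAGT and GCATGCGC each contain a CpG, and AAGATGGC does not. Firmly gained and firmly lost sets gave the same order as gained and lost (9.9% and 1.66% for the ETS motif). The TATA box TATAAA was in 8.11% of gained, 6.6% of kept, 13.2% of lost and 12.6% of all promoters. The EBF motif CCCNNGGG, the palindrome bound by Ebf factors, was in 14.1%, 19.3%, 17.3% and 15.8%, so its share was highest at kept TSS. It was present in the printed window of Reln.

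Chromosome X differed from the autosomes in both directions. Of its 948 TSS 139 were kept, 123 lost and 154 gained. The gained TSS were 52.6% of those marked at E15.5, against 11.9% to 29.3% on chromosomes 1 to 19, and the lost TSS 46.9% of those marked at E13.5, against 25.7% to 36.6%. Firm changes were 27 lost and 113 gained. The X-linked TSS were marked at 19.4% in the E11.5 list, 27.6% in the E13.5 list and 30.9% in the E15.5 list, and 67 of the 154 gained TSS were marked at E11.5. The labels do not give the sex of the embryos. Without the sex chromosomes the gained TSS were 20.3% of those marked at E15.5, against 21.1% with them.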

How the data were processed

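The authors made ChIP-seq libraries for H3K27ac and H3K27me3 from cells sorted by EGFP. Per the labels, reads were aligned to mm10 with Bowtie 1.1.2, and the methods list an option (-M) that in Bowtie keeps a randomly chosen placement of a read with several, which makes peaks in near-identical copies uncertain. Peaks were called with MACS under a p-value cutoff. The MACS version, the control used and whether libraries were pooled are not given in the sources used here. The deposited lists give peak starts and ends, and a score column in which every deposited score is 0, so it carries no information. The total count per library is unknown.

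From these lists overlaps, widths and TSS marking were computed in Python 3.11.15 with pandas 2.3.3 and numpy 2.4.6, with TSS and exons from GENCODE M21. Peaks on the mitochondrial chromosome (4 and 6) were left out. Symbols that repeat (27) were counted once in the 61 gene classes. Named genes were all members of the 3 CR lists, members of other classes that changed firmly or, in classes with 5 or fewer changes, at all, and the 10 widest or most changed of each kind. Overlap functions were tested on simulated data. The members, lists and gene classes were chosen with earlier results of these data known. Some genes that the rule names are not reported here. No test was possible with 1 list per group. Alternatives were peak width, list length, merging, overlap, window, transcript starts and chromosomes.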

Additional observations from a re-analysis of the deposited data

How the results depend on the processing

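No paired analysis was possible because each stage has 1 peak list for its 2 libraries and no result comes from a test, and for the same reason no replicate could be left out. With peaks of 300 bp or wider in both lists, 19.3% of E13.5 and 25.6% of E15.5 peaks were shared, 34.2% of E13.5-marked TSS were lost and 64.5% of E15.5-marked TSS gained. With 500 bp these were 19.3%, 11.4%, 40.1% and 88.3%. With the widest E13.5 peaks, as many as at E15.5, they were 21.8%, 21%, 25% and 55.3%, and 5005 TSS were firmly gained. Merging peaks within 1 kb gave 41.1% of E15.5 peaks shared, and a reciprocal overlap of 50% gave 3.76% of E13.5 and 15% of E15.5 peaks. A window of 1 kb gave 31.1% of E13.5-marked TSS lost and 33.4% of E15.5-marked TSS gained. With any annotated transcript start these shares were 28.7% and 14.8%. Chromosomes 1 to 19 alone gave 20.3% of E15.5-marked TSS gained. A firm width of 200 bp gave 2550 firmly lost and 2282 firmly gained TSS, and 500 bp gave 222 firmly lost and 1190 firmly gained.

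The difference of firmly gained minus firmly lost TSS changed sign in some classes. With a window of 1 kb it became 2 for progenitor, potassium channel and Klf and Sp genes, 1 for neuronal bHLH, cadherin, Notch and immediate early genes, and 3 for cell cycle genes. With peaks of 300 bp or wider it became 2 for progenitor, 4 for bHLH, Wnt and cell cycle, 1 for GABA and glycine receptor, Notch and cytochrome P450, 6 for potassium channel and Klf and Sp, 5 for H3K27 writer and eraser, and 3 for immediate early genes. With a firm width of 500 bp it became 1 for acetylcholine, serotonin and dopamine receptor and for potassium channel genes. With 200 bp it became -2 for sodium and calcium channel genes and -272 over all genes. Counting all lost and gained TSS it became -9 for sodium and calcium channels, -1 for neurexin and related adhesion genes, the Cxcl12 axis and cell death genes, -4 for nuclear receptors and -1901 over all genes. The causes were not tested. Leaving out the Hoxa region and the class differences without a width limit or with firm widths of 200 and 500 bp were added after seeing the data. Depth per library is unknown, so a site missing from a list cannot be told from 1 just under the caller's threshold.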

Other observations

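Lost E13.5 peaks were crowded near some genes. The gene with most lost peaks within 100 kb was Atg7, with 70 lost and 43 shared E13.5 peaks and 0 E13.5 peaks within 5 kb of its TSS, followed by Gm21119 with 65 lost and 11 shared. With peaks of 300 bp or wider, called against all peaks of the other stage, these 2 again led, with 22 and 27 lost peaks. Sulf2, which edits heparan sulfate, had 49 lost and 0 shared peaks, and Runx3, a Runt-domain factor, had 43 lost and 2 shared. The 10 kept TSS with the largest fall in covered bp were all close copies in 1 family on chromosome 4, from Gm13278 (4131 bp at E13.5 and 405 bp at E15.5) to Gm13290 (3026 bp and 313 bp), with Ifnz, an interferon gene, among them, and the placing of reads among such copies is uncertain.

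Gained peaks were fewer and more often next to neural regulators. Nfix, a nuclear factor of neural differentiation, had 12 gained, 4 lost and 11 shared E15.5 peaks within 100 kb. Tnrc18 had 11 gained and 16 lost. Counts of peaks of 300 bp or wider, called against all peaks of the other stage, were also made. Nrn1, which encodes the neurite-promoting protein neuritin, had 5 gained and 1 lost, and Meis2, a homeobox factor, 5 gained and 0 lost.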
